A study of Mus musculus with 9 samples.

Results

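Erythroid and megakaryocyte transcription factors were followed here by the messenger RNA of 10 genes, Gata1, Gata2, Klf1, Fli1, Tal1, Lmo2, Zfpm1, Runx1, Gfi1b and Nfe2, picked by symbol from the 17769 genes of the deposited count table. All 10 were found, and all 10 passed the filter on low counts. The series holds 9 RNA-seq libraries of sorted mouse bone marrow cells labelled MEP (megakaryocyte-erythroid progenitors), 3 for each of 3 genotypes, on a C57BL/6N background. The VF group carries SclCre and a V617F allele and was taken 12 weeks after tamoxifen. The E12 group carries SclCre and an exon 12 allele and was taken 6 weeks after tamoxifen. The WT group was taken at 12 weeks, and its label does not say whether these mice carried SclCre. Per the labels' protocols, JAK2 mutations were induced by 5 daily injections of tamoxifen, an instruction that the labels attach to every sample, WT included. JAK2 is the kinase behind the receptors for erythropoietin and thrombopoietin. Because E12 and VF differ in allele and in weeks after tamoxifen, these cannot be told apart between them. Scl is another name of Tal1, one of the 10 genes, so the Cre driver takes its name from a gene measured here. Sex and age are not given, and the labels do not say that libraries of a group come from separate mice, so each p-value measures the spread between these libraries, which may be technical.

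As background, a progenitor shared by red cells and platelets is steered by a small set of DNA-binding proteins. GATA2 acts in stem and early progenitor cells and is replaced at many sites by GATA1 as cells mature. GATA1 works with its cofactor FOG1 (the product of Zfpm1) and with a complex that TAL1 and LMO2 build, which joins GATA and E-box motifs. KLF1, which binds CACCC boxes, drives the erythroid program, while FLI1, an ETS factor, and RUNX1 drive megakaryocyte genes, and KLF1 and FLI1 are known to oppose each other. GFI1B is a repressor that both lineages need, and NFE2 is the blood-restricted subunit of a factor needed for platelet release and active at globin genes.

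The promoters of Klf1, Gata1 and Gfi1b, lowest in VF, and of Gata2, highest in VF, are shown first, since GATA and CACCC motifs are the sites that GATA and KLF factors recognise. RefSeq promoters of GRCm38.p6, each 250 bases before to 50 bases after a start, were at hand for 7 of the 10 genes, with 10 starts in all. Capitals mark a GATA hexamer, in which the letters GATA follow an adenine or a thymine and precede an adenine or a guanine, or a CACCC box. Both strands were searched, so a motif on the other strand appears as its reverse complement. The Klf1 promoter lies at chr8:84901732-84902031 on the plus strand, that of Gata1 at chrX:7967861-7968160 on the minus strand, and that of Gfi1b at chr2:28621933-28622232 on the minus strand. Gata2 has an upstream start, whose window is chr6:88193641-88193940, and a downstream start, whose window is chr6:88198414-88198713, both on the plus strand.
Klf1: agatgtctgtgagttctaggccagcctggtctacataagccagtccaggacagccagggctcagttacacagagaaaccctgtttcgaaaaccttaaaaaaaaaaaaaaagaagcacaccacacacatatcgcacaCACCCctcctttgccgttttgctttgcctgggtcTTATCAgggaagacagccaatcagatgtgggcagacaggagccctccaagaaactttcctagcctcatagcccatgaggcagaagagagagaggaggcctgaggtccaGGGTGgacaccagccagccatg
Gata1: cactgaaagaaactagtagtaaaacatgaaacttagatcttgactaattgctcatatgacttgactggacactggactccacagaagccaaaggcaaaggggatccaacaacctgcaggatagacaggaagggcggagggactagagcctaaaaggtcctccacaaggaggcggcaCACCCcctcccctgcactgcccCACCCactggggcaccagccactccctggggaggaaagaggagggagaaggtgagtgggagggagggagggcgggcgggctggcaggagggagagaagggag
Gfi1b: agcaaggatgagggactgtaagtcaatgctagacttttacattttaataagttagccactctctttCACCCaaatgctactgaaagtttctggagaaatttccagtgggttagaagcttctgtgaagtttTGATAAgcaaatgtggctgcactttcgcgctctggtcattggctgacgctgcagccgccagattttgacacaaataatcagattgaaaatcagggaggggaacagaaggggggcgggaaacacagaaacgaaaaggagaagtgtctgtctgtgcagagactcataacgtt
Gata2 upstream start: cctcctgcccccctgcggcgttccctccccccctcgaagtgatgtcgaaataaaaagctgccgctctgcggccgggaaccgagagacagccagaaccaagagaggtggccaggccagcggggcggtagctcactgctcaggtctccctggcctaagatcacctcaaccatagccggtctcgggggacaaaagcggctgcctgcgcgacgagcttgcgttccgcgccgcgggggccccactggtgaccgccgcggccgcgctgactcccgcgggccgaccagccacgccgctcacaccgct
Gata2 downstream start: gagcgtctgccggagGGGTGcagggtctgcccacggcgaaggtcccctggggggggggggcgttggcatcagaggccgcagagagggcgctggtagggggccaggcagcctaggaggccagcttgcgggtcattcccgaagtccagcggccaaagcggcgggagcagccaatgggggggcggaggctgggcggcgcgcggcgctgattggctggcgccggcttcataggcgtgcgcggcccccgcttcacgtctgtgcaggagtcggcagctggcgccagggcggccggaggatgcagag
The Klf1 promoter held 1 GATA hexamer 80 bases before the start and a CACCC box on each strand. The Gfi1b promoter held 1 GATA hexamer 120 bases before its start and 1 CACCC box. Gata1 had 2 CACCC boxes, 74 and 52 bases before the start, and none of the GATA hexamers. Of the Gata2 windows, the upstream one held neither motif and the downstream one held 1 CACCC box. Over the 10 starts of these genes, 3 windows held a GATA hexamer and 7 held a CACCC box, against 29.8% and 57.5% of all 32851 promoters of the same length in the table. A match describes letters and not a site in use.

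In the libraries labelled VF and E12, the factors split into sets that differed from WT in opposite directions. Fli1, Gata2, Runx1, Tal1, Zfpm1 and Lmo2 were higher in both mutants, and Klf1 and Gfi1b were lower in both. Gata1 was called lower in VF and Nfe2 was called lower in E12. The largest differences were those of Fli1 and Klf1, which in VF were 42.9-fold higher and 21.7-fold lower than in WT. In VF against WT, 6 of 10 factors were called higher and 3 lower, at an adjusted p under 0.05 (edgeR's quasi-likelihood test, adjusted by Benjamini-Hochberg over 13608 genes), where 48.6% of all genes tested were called, 27.7% higher and 20.9% lower. In E12 against WT, 6 were called higher and 3 lower, where 42% of all genes were called, 23.9% higher and 18.1% lower. Both comparisons use the same WT libraries, and 8 factors were called in both, each in 1 direction. On levels scaled between libraries, the groups did not overlap for any of the 10 factors in VF against WT, where 62.7% of genes had no overlap. In E12 against WT this held for 9 factors, where 53.3% of genes had none. The median log2 fold change was 0.92 over the 10 factors and 0.36 over all genes for VF against WT, and 1.08 against 0.36 for E12 against WT. With so many genes called, the share called among the factors is no mark of this set, and the size and direction of each gene carry the description that follows.

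The WT libraries stood apart from the others in make-up. Each VF library held 19256431 to 21331168 counts, each E12 library 20328414 to 23499914, and each WT library 33838681 to 39736096. Genes shorter than 1 kb took 8.24 to 8.97% of the counts in VF, 6.92 to 8.79% in E12 and 11.2 to 27.9% in WT, the highest in WT 50. Genes without a single count made up 10.7 to 12.4% of the table in VF, 12.4 to 18.7% in E12 and 27.2 to 30.1% in WT. The titles number the WT libraries 50, 51 and 52 and the mutant libraries between 1 and 5. Whether these numbers mark a batch is not given, and a batch that coincides with WT cannot be told apart from genotype. Hemoglobin genes took 3.37% of counts in E12 5 and 0.0048 to 0.325% in the other 8 libraries. An alternative fit used a curve of gene length for each library (length offsets), and its values are given beside some of the genes.

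**Figure D1:**
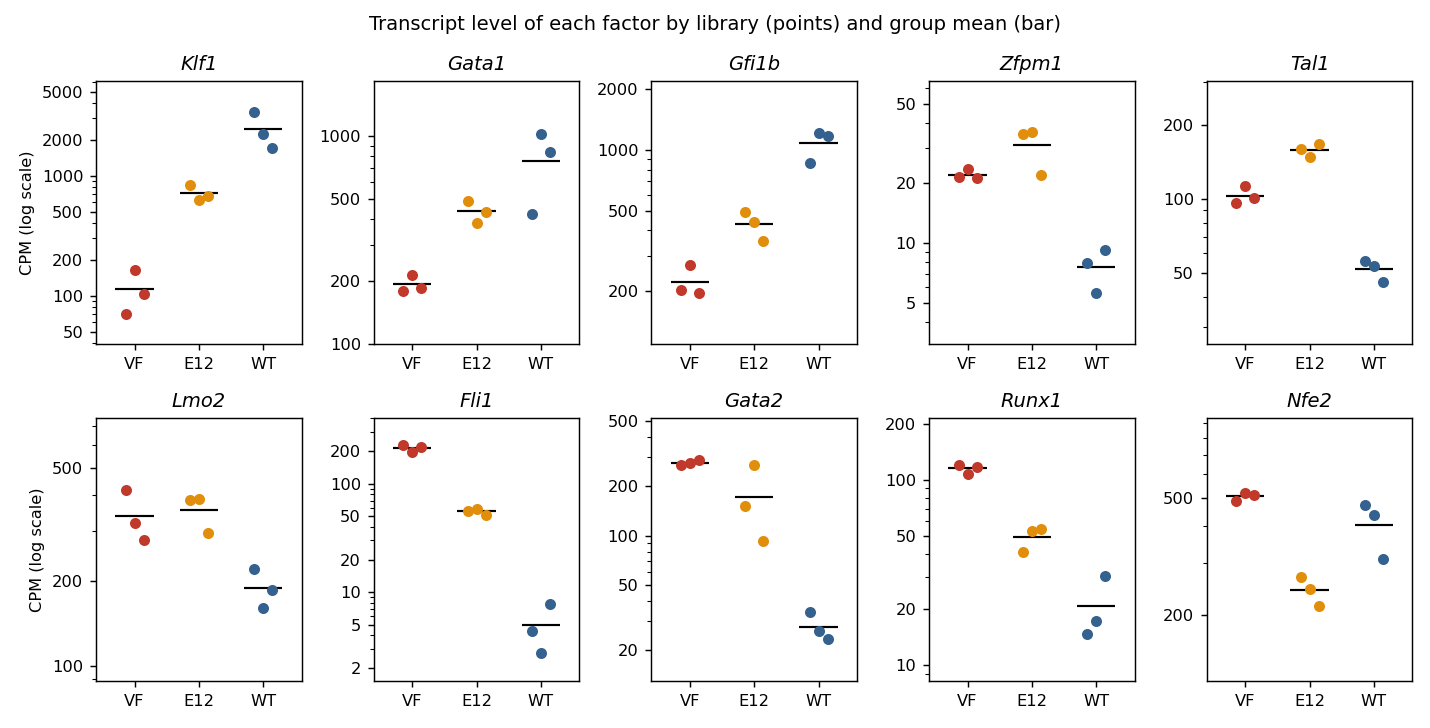
Level of each factor in every library, in counts normalised to library size (CPM, log scale) after TMM scaling, with VF on the left, then E12, then WT; points are libraries and the bar is the group mean. Fli1, Gata2 and Runx1 run highest in VF and lowest in WT, Klf1 and Gfi1b run the other way, and Nfe2 is lowest in E12.

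The GATA factors that take over from each other during maturation differed from WT in opposite directions. Gata1 (Entrez 14460, chrX:7959260-7976663, GRCm38) encodes the factor that turns on most erythroid and megakaryocyte genes. It was read at 179.2, 215.5 and 186.5 CPM in VF, at 486.6, 383.5 and 433.1 CPM in E12, and at 420.8, 1025 and 835.8 CPM in WT. In CPM every VF library was below every WT library, while WT 50 fell among the E12 libraries. This order depends on the scaling. On the authors' deposited log2 levels WT 50, at 7.64, lay below the VF libraries, at 7.94, 8.22 and 8.04. The means were 194 ± 19.2 CPM in VF, 434 ± 51.5 CPM in E12 and 761 ± 309 CPM in WT (SD, n = 3 each). Gata1 was 3.93-fold lower in VF than in WT (log2 fold change -1.97, SE 0.35, edgeR adjusted p = 0.0023). In E12 the log2 fold change against WT was -0.81 (SE 0.34, edgeR adjusted p = 0.082), short of the threshold, and without WT 50 it was -1.24 (edgeR adjusted p = 0.00060). The E12 value passed the threshold in 6 of 20 alternatives, length offsets among them. On the authors' deposited log2 levels the VF call was lost (-0.74, limma adjusted p = 0.17), and the E12 value turned to 0.30.

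Gata2 (Entrez 14461, chr6:88193891-88207032) encodes the GATA factor of stem and early progenitor cells. Its levels were 268.3, 277.7 and 291.3 CPM in VF, 152.1, 270.2 and 92.7 CPM in E12, and 34.07, 26.32 and 23.43 CPM in WT. All 6 mutant libraries lay above all WT libraries, and E12 spread more widely than VF, with E12 2 inside the VF range. Mean levels were 279 ± 11.6 CPM in VF, 172 ± 90.3 CPM in E12 and 27.9 ± 5.50 CPM in WT (SD, n = 3 each). The gene was 9.99-fold higher in VF than in WT (log2 fold change 3.32, SE 0.40, edgeR adjusted p = 0.00049) and 6.15-fold higher in E12 than in WT (2.62, SE 0.39, edgeR adjusted p = 0.0020). Length offsets brought these log2 values to 2.28 and 1.60, both still called.

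Read against each other within a library, which needs no scaling between libraries, the counts of the GATA genes stood in a different ratio in each group. The log2 ratio of Gata1 to Gata2 counts was -0.58, -0.37 and -0.64 in VF, 1.68, 0.51 and 2.22 in E12, and 3.63, 5.28 and 5.16 in WT. In each VF library Gata2 had more counts than Gata1, and in each E12 and WT library it had fewer. The groups did not overlap. The mean log2 ratio was -0.53 ± 0.15 in VF and 4.69 ± 0.92 in WT, a difference of -5.22, and 1.47 ± 0.88 in E12, a difference of -3.22 from WT (SD, n = 3 each). An exact two-sided permutation test gave 0.1 for each, the smallest p that 3 libraries against 3 allow. The Gata1 transcript is the shorter of the pair (1902 against 3243 bases in the deposited lengths), and with length offsets the differences from WT were -4.12 in VF and -2.22 in E12. Per gene length Gata1 was above Gata2 in all 3 groups, in VF at 102 RPKM for Gata1 and 86.1 RPKM for Gata2, so the lead of Gata2 in VF is one of raw counts.

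Klf1 (Entrez 16596, chr8:84901982-84905291), the master activator of globin, heme and red cell membrane genes, was the factor most reduced. It was read at 70.85, 163.1 and 103.6 CPM in VF, at 836.3, 630.4 and 679.9 CPM in E12, and at 3413, 2235 and 1691 CPM in WT. In CPM the groups formed a ladder with no overlap, VF lowest, E12 in the middle and WT highest. On the deposited levels WT 50, at 9.92, lay within the E12 range of 9.73 to 9.99. Averages were 113 ± 46.8 CPM in VF, 716 ± 108 CPM in E12 and 2447 ± 880 CPM in WT (SD, n = 3 each). Klf1 was 21.7-fold lower in VF than in WT (log2 fold change -4.44, SE 0.45, edgeR adjusted p = 0.00027) and 3.42-fold lower in E12 than in WT (-1.77, SE 0.40, edgeR adjusted p = 0.0088). Length offsets gave -3.86 and -1.09, both called, while on the deposited levels the values were -3.24, still called, and -0.39, no longer called (limma adjusted p = 0.38).

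Fli1 (Entrez 14247, chr9:32422204-32543432), the ETS factor that activates platelet glycoprotein genes, had the reverse ladder. Its 3 VF libraries stood at 225.5, 196.9 and 220.0 CPM, the E12 libraries at 56.61, 59.01 and 51.23 CPM, and the WT libraries at 4.417, 2.741 and 7.786 CPM. No groups overlapped, and replicates of VF and of E12 lay close together. Averages were 214 ± 15.2 CPM in VF, 55.6 ± 3.98 CPM in E12 and 4.98 ± 2.57 CPM in WT (SD, n = 3 each). Fli1 was 42.9-fold higher in VF than in WT (log2 fold change 5.42, SE 0.41, edgeR adjusted p = 0.00012) and 11.2-fold higher in E12 than in WT (3.48, SE 0.37, edgeR adjusted p = 0.00068). With length offsets the log2 values were 4.59 and 2.67, on the deposited levels the E12 value was 2.88, and the calls held under every alternative run for both comparisons with WT.

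Between the opposing factors KLF1 and FLI1, the balance of counts was tipped differently in each group. The log2 ratio of Klf1 to Fli1 was -1.67, -0.27 and -1.09 in VF, 3.89, 3.42 and 3.73 in E12, and 9.59, 9.66 and 7.76 in WT. Each VF library had fewer Klf1 than Fli1 counts, E12 libraries had 10.7 to 14.8 Klf1 counts for each Fli1 count, and WT libraries 217 to 811. The mean log2 ratio was -1.01 ± 0.70 in VF and 9.0 ± 1.08 in WT, a difference of -10.01, and 3.68 ± 0.24 in E12, a difference of -5.33 from WT (SD, n = 3 each; exact two-sided permutation p = 0.1 for each, the smallest possible). E12 and VF differed by 4.69 (exact permutation p = 0.1). Klf1 is the shorter transcript (1534 against 3175 bases), and with length offsets the differences from WT were -8.45 in VF and -3.77 in E12. In sorted bulk RNA, fewer cells of a type and less RNA per cell cannot be told apart, here and for every gene below.

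**Figure D2:**
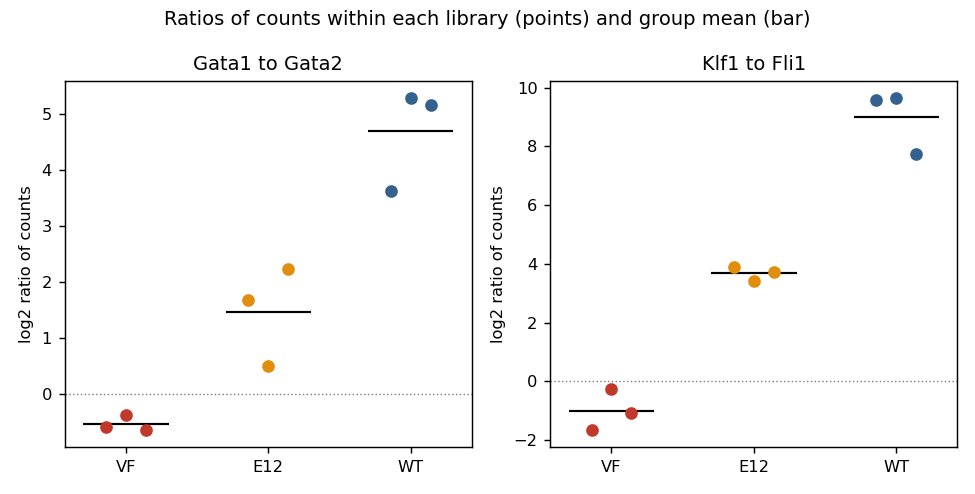
Log2 ratio of counts within each library, Gata1 to Gata2 on the left and Klf1 to Fli1 on the right, for VF, E12 and WT; points are libraries, bars are group means, and 0 is equal counts. VF lies below 0, E12 between 0.51 and 3.89, and WT between 3.63 and 9.66, without overlap between the groups of a panel.

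Runx1 (Entrez 12394, chr16:92601466-92826074), needed for blood stem cells to form and for megakaryocytes to mature, followed the order of Fli1. Levels were 120.5, 107.7 and 118 CPM in VF, 40.8, 53.26 and 54.45 CPM in E12, and 14.8, 17.25 and 30.36 CPM in WT. No groups overlapped, with VF highest, E12 in the middle and WT lowest. Runx1 was 5.54-fold higher in VF than in WT (log2 fold change 2.47, SE 0.31, edgeR adjusted p = 0.00056) and 2.38-fold higher in E12 than in WT (1.25, SE 0.30, edgeR adjusted p = 0.010). Its deposited transcript length of 7378 bases is the longest of the set. Length offsets reduced the VF value to 1.12, still called, and the E12 value to 0.07, no longer called (edgeR adjusted p = 0.80). The E12 call was also lost in a fit of E12 and WT alone. The exons of Runx1 overlap those of the antisense gene Gm26626 by 106 of 12025 bases, and reads there cannot be assigned to a strand in these libraries.

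Tal1 (Entrez 21349, chr4:115056426-115071755) and Lmo2 (Entrez 16909, chr2:103957903-103981878) encode the helix-loop-helix factor and the bridging protein of the complex that joins E-box and GATA sites. Tal1 had 96.43, 113.1 and 100.7 CPM in VF, 159.9, 149.1 and 168.6 CPM in E12, and 56.04, 53.22 and 46.04 CPM in WT. Unlike the factors above, it was highest in E12, then VF, then WT, and no groups overlapped. Tal1 was 2.00-fold higher in VF than in WT (log2 fold change 1.0, SE 0.20, edgeR adjusted p = 0.0039) and 3.08-fold higher in E12 than in WT (1.62, SE 0.20, edgeR adjusted p = 0.0011). Length offsets turned the VF value to -0.28 (edgeR adjusted p = 0.39) and left 0.41 in E12 (edgeR adjusted p = 0.25), so neither call held with them.

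Lmo2 had 416.1, 317.9 and 277 CPM in VF, 384.3, 387.8 and 294.4 CPM in E12, and 219.4, 159.6 and 185.1 CPM in WT. The mutants overlapped each other and lay above WT. Lmo2 was 1.79-fold higher in VF than in WT (log2 fold change 0.84, SE 0.26, edgeR adjusted p = 0.026) and 1.89-fold higher in E12 than in WT (0.92, SE 0.26, edgeR adjusted p = 0.022). On the deposited levels both values were larger and called (1.78 in VF and 1.65 in E12, limma adjusted p = 0.00014 and 0.00049). For VF against WT the call was lost without VF 1 (0.67), VF 2 (0.89), WT 51 (0.54) or WT 52 (0.54), with edgeR adjusted p-values between 0.063 and 0.19. For E12 against WT it was lost without E12 1 (0.87), E12 2 (0.86), WT 51 (0.61) or WT 52 (0.62), with edgeR adjusted p-values between 0.068 and 0.15. RLE scaling ended both calls (0.66 and 0.69 on the log2 scale). Both were also lost without the filter on low counts and in fits of the 2 groups compared.

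Zfpm1 (Entrez 22761, chr8:122281856-122337862) encodes FOG1, the cofactor that binds the N-terminal zinc finger of GATA1. It stood at 21.45, 23.48 and 21.09 CPM in VF, 35.25, 36.19 and 22.06 CPM in E12, and 7.951, 5.575 and 9.248 CPM in WT. Both mutants lay above WT, and E12 5 fell within the VF range while the other E12 libraries did not. Zfpm1 was 2.90-fold higher in VF than in WT (log2 fold change 1.54, SE 0.31, edgeR adjusted p = 0.0044) and 4.11-fold higher in E12 than in WT (2.04, SE 0.32, edgeR adjusted p = 0.0025). Length offsets gave 0.54 in VF, no longer called (edgeR adjusted p = 0.21), and 1.06 in E12, still called. The VF call was also lost on the deposited levels (0.67, limma adjusted p = 0.078), where E12 had 1.28, still called.

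Gfi1b (Entrez 14582, chr2:28609450-28621982), the repressor required for red cells and platelets, shared the order of Klf1. It had 203.7, 268.1 and 196.4 CPM in VF, 494.4, 441.1 and 353.2 CPM in E12, and 864.4, 1223 and 1177 CPM in WT. In CPM each VF library was below each E12 library, and each E12 library was below each WT library. On the deposited levels WT 50, at 8.26, lay within the VF range of 8.12 to 8.58. Gfi1b was 4.88-fold lower in VF than in WT (log2 fold change -2.29, SE 0.29, edgeR adjusted p = 0.00059) and 2.53-fold lower in E12 than in WT (-1.34, SE 0.28, edgeR adjusted p = 0.0068). On the deposited levels neither was called (-0.97, limma adjusted p = 0.059, and -0.17, limma adjusted p = 0.75).

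Nfe2 (Entrez 18022, chr15:103248212-103258403) had an order of its own. Levels were 488.7, 519.0 and 511.0 CPM in VF, 269.1, 243.8 and 214.5 CPM in E12, and 470.2, 435.0 and 310.3 CPM in WT. In CPM all VF libraries lay above all WT libraries and all E12 libraries lay below them. On the deposited levels WT 50 and WT 52, at 7.73 and 7.974, lay below the E12 libraries, at 7.995 to 8.242. In VF the log2 fold change against WT was 0.32 (SE 0.25, edgeR adjusted p = 0.31), short of the threshold, and it was -0.12 without WT 52 and -0.53 with length offsets. On the deposited levels Nfe2 was called higher in VF (1.51, limma adjusted p = 0.00029). Nfe2 was 1.67-fold lower in E12 than in WT (-0.74, SE 0.25, edgeR adjusted p = 0.040). That call fell short of the threshold in 8 of 20 alternatives, and 1 more reversed its sign. Among the 8 were the fits without E12 1 (-0.81), E12 2 (-0.74) or E12 5 (-0.65) and without VF 1, VF 2 or VF 3 (-0.73 each). These leave-out fits had edgeR adjusted p-values between 0.077 and 0.13. A fit of E12 and WT alone did not call Nfe2 either. Length offsets gave -1.56, still called (edgeR adjusted p = 0.012), and on the deposited levels the value was 0.14 (limma adjusted p = 0.59).

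**Figure D3:**
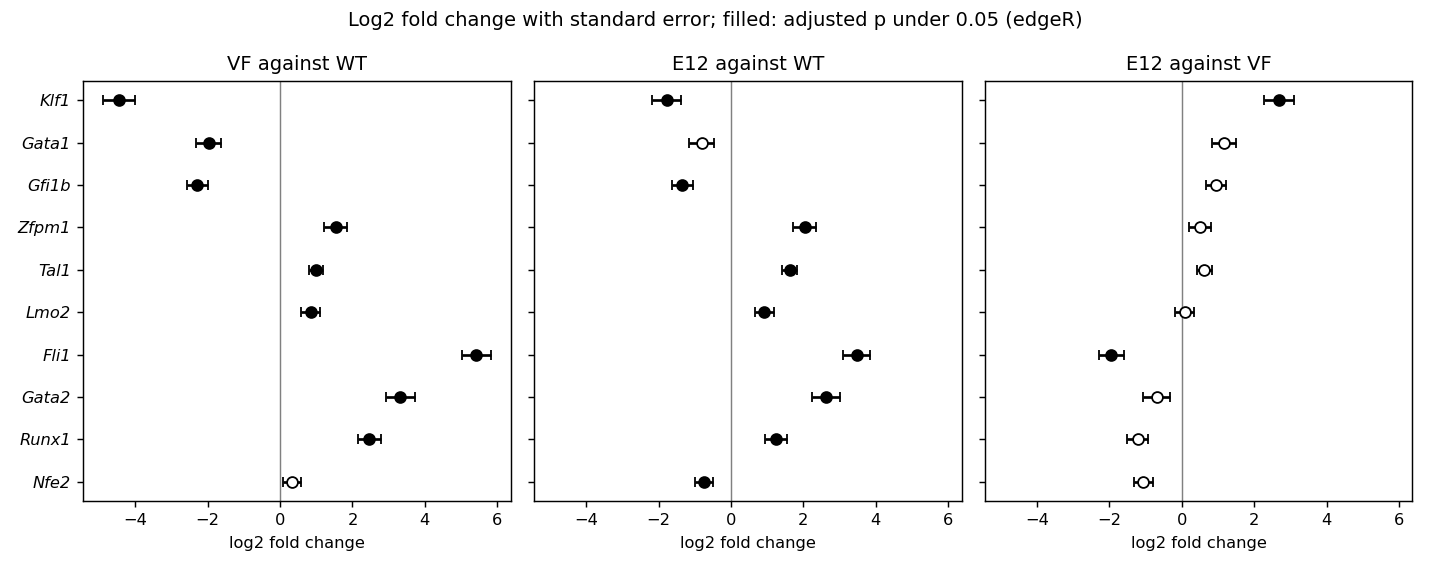
Log2 fold change of each factor (points) with its standard error (bars), in 3 panels (both mutants against WT, then E12 against VF); filled points have an edgeR adjusted p under 0.05. In VF the values run from -4.44 for Klf1 to 5.42 for Fli1, in E12 against WT from -1.77 to 3.48 for the same genes, and those genes are the filled ones in E12 against VF.

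The mutants were then set against each other. Klf1 was 6.36-fold higher in E12 than in VF (log2 fold change 2.67, SE 0.42, edgeR adjusted p = 0.015), and Fli1 was 3.85-fold lower (-1.94, SE 0.35, edgeR adjusted p = 0.024). These were the 2 factors called, 1 higher and 1 lower, where 3.21% of all genes were called, 2.19% higher and 1.02% lower. Leaving out single libraries ended both calls. Fli1 lost its call without any 1 of the VF and E12 libraries, with log2 values from -2.00 to -1.89, while on the deposited levels its value was -2.53, still called. Klf1 lost it without VF 1 (2.43), VF 3 (2.62), E12 1 (2.54), E12 2 (2.75) or E12 5 (2.71). Of the others, Gata1, Tal1 and Gfi1b were higher in all E12 libraries than in all VF libraries, with log2 values of 1.17, 0.62 and 0.95, and Runx1 and Nfe2 were lower in all, with -1.22 and -1.06. Their edgeR adjusted p-values were 0.11, 0.13, 0.11, 0.060 and 0.058. Libraries of the groups did not overlap for 7 of the 10 factors, against 59.5% of all genes. Gata2, Lmo2 and Zfpm1 overlapped, and the 95% intervals of their log2 differences were -1.53 to 0.12, -0.51 to 0.67 and -0.19 to 1.2.

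The number of calls between E12 and VF also differed with the WT libraries in the fit, in which all 9 libraries share 1 estimate of spread. A fit of the E12 and VF libraries alone, which also filters and scales them alone, called 8 of the 10 factors, Gata1, Klf1, Tal1, Zfpm1 and Gfi1b higher and Fli1, Runx1 and Nfe2 lower, with 6412 genes called in all, against 437 in the fit with WT. The part of the shared spread in this was not tested. Without WT 50, 7 factors were called, 4 higher and 3 lower. The log2 values themselves moved little, that of Gata1 being 1.2 in the fit of the mutants alone.

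E12 had the middle mean for 6 factors, Gata1, Gata2, Klf1, Fli1, Runx1 and Gfi1b. For 4 of these, Klf1, Fli1, Runx1 and Gfi1b, neighbouring groups did not overlap in CPM. Tal1 and Nfe2 also had no overlap at either step but placed E12 at an end, highest for Tal1 and lowest for Nfe2. Lmo2 and Zfpm1 had E12 at the top, overlapping VF.

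To compare genes with each other, levels were divided by the deposited gene length (RPKM). In VF the order began with Nfe2 at 181 and Lmo2 at 177 RPKM, then Gfi1b at 122 and Gata1 at 102 RPKM, and neighbours among these overlapped. Gata2, Klf1 and Fli1 came next at 86.1, 73.4 and 67.4 RPKM and overlapped in turn. Gata2 was apart from Gata1, but Klf1, at 106.3 RPKM in VF 2, reached into the Gata1 range. Then came Tal1 at 24.2, Runx1 at 15.6 and Zfpm1 at 6.50 RPKM, each apart from the next. In E12 Klf1 led at 466 RPKM, apart from Gfi1b, Gata1 and Lmo2 at 236, 228 and 187 RPKM. Nfe2, Gata2 and Tal1 followed at 86.8, 52.9 and 37.3 RPKM, then Fli1 at 17.5 RPKM, and last Zfpm1 and Runx1 at 9.21 and 6.71 RPKM. In WT Klf1 stood at 1595 RPKM, above Gfi1b and Gata1 at 597 and 400 RPKM, which overlapped. Nfe2 and Lmo2 at 145 and 99.0 RPKM overlapped, Tal1 at 12.1 and Gata2 at 8.61 RPKM were each apart, and Runx1, Zfpm1 and Fli1 at 2.82, 2.24 and 1.57 RPKM overlapped. Klf1 thus headed the order in E12 and WT but not in VF, and Fli1 had the lowest mean in WT but not in the mutants.

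**Figure D4:**
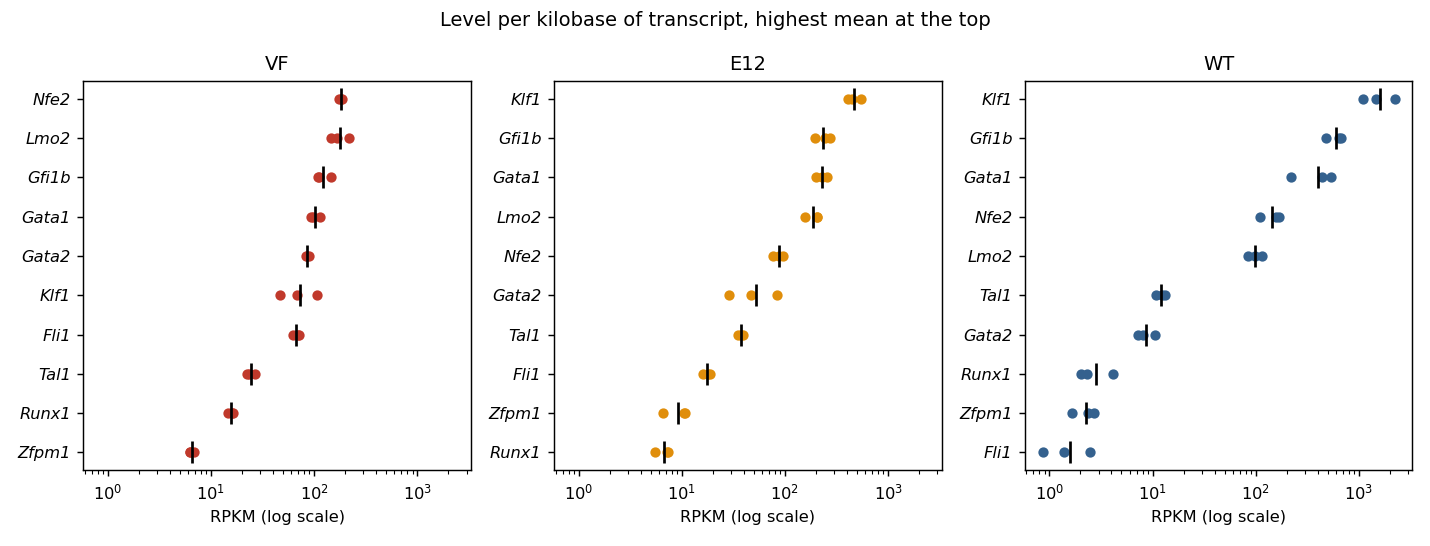
Level per gene length (RPKM, log scale) of the 10 factors in VF, E12 and WT, 1 panel per group with the highest mean at the top; points are libraries and black ticks are group means. By mean, Klf1 is at 73.4 RPKM in VF and 1595 RPKM in WT, Fli1 is at 67.4 RPKM in VF and 1.57 RPKM in WT, and Nfe2 and Lmo2 stay between 86.8 and 187 RPKM.

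Genes around the factors were read from lists of textbook genes. For scale, 27.7% of all genes were called higher and 20.9% lower in VF against WT, with a median log2 fold change of 0.36. In E12 against WT these shares were 23.9% and 18.1%, with a median of 0.36. Among 18 partners and cofactors, 3 were called higher and 3 lower in VF against WT, and 5 higher and 4 lower in E12 against WT, with median log2 fold changes of 0.15 and 0.21. Cbfb, the partner subunit of the RUNX factors, moved with Runx1, at 55.0 CPM in VF, 33.1 CPM in E12 and 9.15 CPM in WT (edgeR adjusted p = 0.00038 for VF and 0.0022 for E12 against WT). Mafk, a small MAF protein that pairs with NFE2, was 3.31-fold higher in VF and 3.87-fold higher in E12 than in WT, at 59.5 CPM in VF, 69.6 CPM in E12 and 18.0 CPM in WT (edgeR adjusted p = 0.010 and 0.0085). Ssbp3, a protein that binds and steadies LDB1, was lower in VF, at 24.8 CPM against 76.5 CPM in WT (edgeR adjusted p = 0.0016), and Ldb1, the scaffold of the TAL1 complex, was lower at 23.9 CPM against 38.5 CPM in WT (edgeR adjusted p = 0.040; named after its values were seen). Tcf3, an E-protein that dimerises with TAL1, was higher in E12 than in both other groups, at 199 CPM, against 67.5 CPM in VF (edgeR adjusted p = 0.012) and 84.8 CPM in WT (edgeR adjusted p = 0.0042). With length offsets, 3 partners were called higher and 9 lower in VF, and 2 higher and 6 lower in E12 against WT. Without WT 50 and E12 5, 7 were lower in VF and 7 were higher in E12 against WT. A fit of E12 and WT alone called 4 higher and 0 lower.

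Of 14 genes related to the factors by family, 8 were higher and 3 lower in VF against WT (median 0.99). In E12 against WT 3 were higher and 1 lower (median 0.68). Over all genes 27.7% were higher and 20.9% lower in VF, and 23.9% and 18.1% in E12, with a median of 0.36 in each. Etv6, an ETS repressor, was 7.53-fold higher in VF and 2.95-fold higher in E12 than in WT, at 182 CPM in VF, 71.1 CPM in E12 and 24.1 CPM in WT (edgeR adjusted p = 0.00028 and 0.0042). Runx2, known for bone formation, stood at 42.4 CPM in VF, 15.8 CPM in E12 and 0.63 CPM in WT (edgeR adjusted p = 0.0016 and 0.0059 against WT). Gfi1, the close relative of Gfi1b, had no count in WT, against 7.12 CPM in VF and 2.06 CPM in E12, at least 177-fold and 51.4-fold higher against 3 counts over the WT group (named after its values were seen). Klf13, a CACCC-binding relative of Klf1, was lower in both mutants, at 162 CPM in VF and 147 CPM in E12, against 488 CPM in WT (edgeR adjusted p = 0.0020 and 0.0025). Length offsets changed the balance to 3 higher and 4 lower in VF, and 2 higher and 3 lower in E12. A fit of VF and WT alone called 5 higher.

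Other transcription factors of blood lineages, 19 in number, were mostly higher in the mutants. In VF against WT 14 were higher and 1 lower (median 1.57), where 27.7% of all genes were higher and 20.9% lower. In E12 against WT 12 were higher and 0 lower (median 1.43), where 23.9% of all genes were higher and 18.1% lower. Meis1, which encodes a homeodomain protein active in stem cell programs, averaged 266 CPM in VF, 64.5 CPM in E12 and 8.21 CPM in WT. It was called higher in each comparison with WT and lower in E12 than in VF (edgeR adjusted p = 0.016). Spi1, the myeloid factor known to antagonise GATA1, averaged 153 CPM in VF, 50.3 CPM in E12 and 4.32 CPM in WT (edgeR adjusted p = 0.00049 and 0.0028 against WT; named after its values were seen). Mecom had no count in WT, and its 17.1 CPM in VF and 3.67 CPM in E12 were at least 427-fold and 91.4-fold higher. Ikzf1, a lymphoid and progenitor factor, was higher in E12, at 307 CPM, than in VF at 136 CPM (edgeR adjusted p = 0.027) and WT at 107 CPM (edgeR adjusted p = 0.0018). With length offsets, 8 of the list were higher and 3 lower in VF, and 4 higher and 1 lower in E12.

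Genes known as erythroid targets of GATA1 and KLF1 were set beside the factors. In VF against WT 26 of 29 were called lower and 0 higher, with a median log2 fold change of -3.64. Over all genes 20.9% were lower and 27.7% higher, with a median of 0.36. Car2, a carbonic anhydrase of red cells, was at 977 ± 154 CPM in VF and 15130 ± 2157 CPM in WT (SD, n = 3 each, log2 fold change -3.95, edgeR adjusted p = 0.00021). Cpox, an enzyme of heme synthesis, was at 10.6 CPM in VF, against 108 CPM in WT (edgeR adjusted p = 0.00022). In E12 3 genes were called higher and 8 lower than in WT, with a median of 0.40. There 23.9% of all genes were higher and 18.1% lower, and their median was 0.36. Urod and Rhd were lower in E12 at 238 and 302 CPM, against 1284 and 2696 CPM in WT (edgeR adjusted p = 0.0043 and 0.0051), while Ank1, the membrane skeleton protein ankyrin, was higher at 42.1 CPM, against 17.1 CPM in WT. In E12 against VF 23 of 29 were called higher and 0 lower, against 2.19% and 1.02% of all genes, with a median of 4.04. There Ank1 and Add2, both of the red cell membrane skeleton, were 30.8-fold and 31.5-fold higher in E12 (edgeR adjusted p = 0.0046 each). Without WT 50 and E12 5, the library with 3.37% hemoglobin counts, 1 was higher and 11 were lower in E12 against WT with a median of -0.61, and 27 were higher in E12 against VF.

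Megakaryocyte targets of GATA1, FLI1, RUNX1 and NFE2 took the opposite course. Of 25 genes 23 passed the filter. In VF 18 of these were called higher than in WT and 0 lower (median 4.62), and in E12 14 were higher and 1 lower (median 2.97). In E12 against VF 0 were higher and 6 lower (median -2.40). All-gene shares were 27.7% higher and 20.9% lower in VF, 23.9% and 18.1% in E12, and 2.19% and 1.02% in E12 against VF. Itgb3, the platelet integrin beta subunit, had 137 CPM in VF, 19.2 CPM in E12 and no count in WT, at least 3425-fold and 478-fold higher in VF and E12. Gp5, a platelet glycoprotein, averaged 82.1 CPM in E12 and 7.63 CPM in WT (edgeR adjusted p = 0.0014). Vwf, the von Willebrand factor gene, was lower in E12 than in VF, at 25.4 CPM in E12 and 122 CPM in VF (log2 fold change -2.27, edgeR adjusted p = 0.018). The gene called lower in E12 than in WT was Myl9, a myosin light chain. Its levels were near the floor, at 0.10 CPM in E12 and 3.92 ± 4.22 CPM in WT (SD, n = 3, edgeR adjusted p = 0.036). In E12 against VF, 16 rather than 6 were called lower without WT 50 and E12 5. The fit of E12 and VF alone called 21 of 22 lower, and all 29 erythroid targets higher. The choice of these lists was made with results of these data known, and their counts describe the genes and do not stand as separate evidence on the factors.

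**Figure D5:**
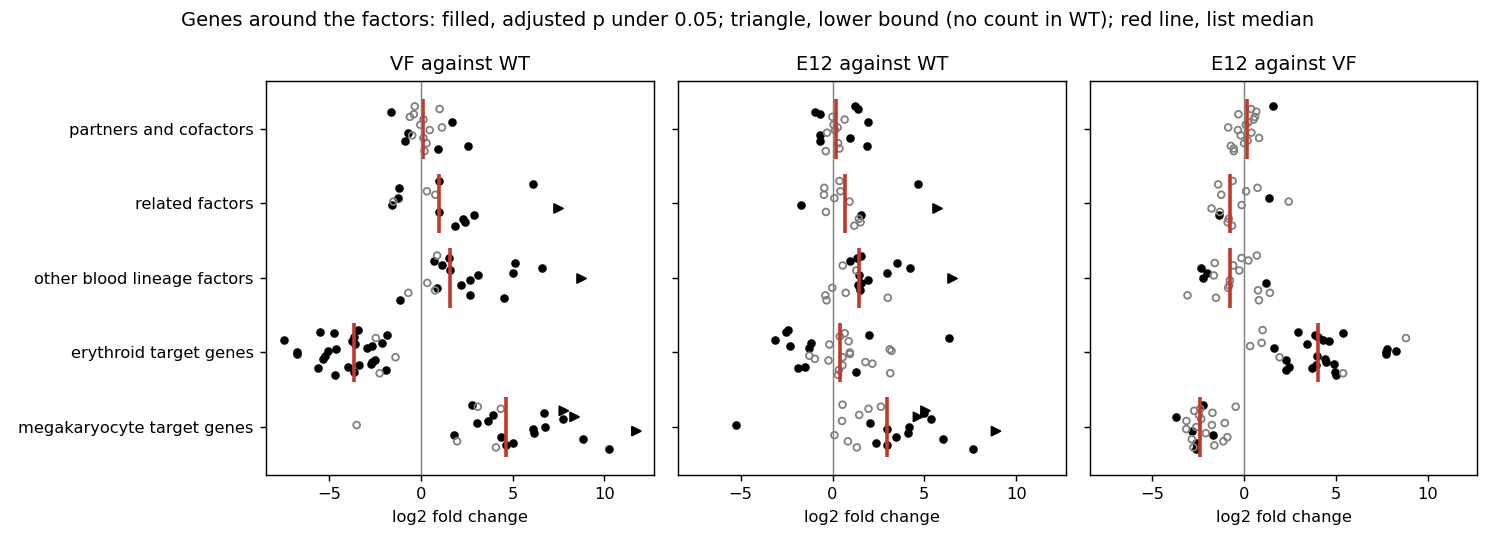
Log2 fold changes of the genes around the factors, 5 lists down the page and 3 comparisons across; filled points have an edgeR adjusted p under 0.05, triangles are lower bounds for genes with no count in WT, and red lines are list medians. The erythroid list lies at a median of -3.64 in VF against WT and 4.04 in E12 against VF, and the megakaryocyte list at 4.62 and -2.40.

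Markers of the sort and of other cells are given beside the factors. Over all genes 27.7% were called higher and 20.9% lower in VF against WT, and 23.9% higher and 18.1% lower in E12 against WT. MEP are commonly sorted as Kit-positive cells low in CD34 and Fc gamma receptors. Kit was at 503 to 588 CPM in VF, 282 to 358 CPM in E12 and 60.8 to 187 CPM in WT. Cd34 was at 633 to 675 CPM in VF, 119 to 288 CPM in E12 and 2.77 to 4.97 CPM in WT. Receptor gene Fcgr3 was at 31.2 to 66.2 CPM in VF, 4.91 to 8.34 CPM in E12 and 2.38 to 22.7 CPM in WT. Receptor gene Fcgr2b was at 28.2 to 33.6 CPM in VF, 9.29 to 16.7 CPM in E12 and 2.35 to 9.11 CPM in WT. Of 6 sort markers, Kit, Cd34, Fcgr2b and Fcgr3 were called higher in VF than in WT, and Kit and Cd34 in E12. Ly6a and Il7r were not called, and Il7r averaged 4.95 CPM in VF, 9.7 CPM in E12 and 13.6 CPM in WT. The labels do not give the gate used here. Of 13 stem cell markers 11 were called higher and 1 lower in VF than in WT, and 9 higher in E12 than in WT, and their summed level was 1657 to 1742 CPM in VF, 386 to 609 CPM in E12 and 90.9 to 148 CPM in WT, where Procr, Tek and Robo4 had no count. Of 14 neutrophil markers 6 were higher in VF than in WT, and in E12 2 were higher and 4 lower (0 lower with length offsets or in the fit of E12 and WT alone, and 6 lower without WT 50 and E12 5), with sums of 7172 to 13170 CPM in VF, 2089 to 2321 CPM in E12 and 515 to 8002 CPM in WT. Of 8 tested mast cell and basophil markers 4 were higher and 1 lower in VF than in WT, and 2 were higher in E12, with sums of 361 to 461 CPM in VF, 91.9 to 253 CPM in E12 and 79.7 to 140 CPM in WT. B cell markers summed to 152 to 315 CPM in VF, 33.6 to 802 CPM in E12 and 458 to 4763 CPM in WT. Of the 10 tested, 3 were called lower in VF than in WT and 0 in E12. These counts were 5 in VF and 8 in E12 without WT 50 and E12 5, 0 and 0 with length offsets, and 5 and 0 in fits of the 2 groups compared. Monocyte markers summed to 603 to 740 CPM in VF, 251 to 507 CPM in E12 and 80.0 to 833 CPM in WT, and 7 of 12 in VF and 5 of 12 in E12 were called higher than in WT. T and NK cell markers summed to 528 to 628 CPM in VF, 155 to 253 CPM in E12 and 148 to 1171 CPM in WT, with 2 of 9 called higher in each mutant and median log2 fold changes against WT of 0.05 in VF and -1.13 in E12. The part of these cells in the levels of the 10 factors was not tested.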

How the data were processed

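Poly(A) RNA of sorted bone marrow MEP was read in 9 libraries. Per the labels' protocols RNA was extracted with PicoPure and libraries were made by Smart-Seq2, which keeps neither strand nor molecular identifiers. The deposited table gives raw whole-number counts per gene and a length for each gene. A second table deposited by the authors gives levels in log2 units. The tools STAR and limma and the builds GRCm38 and mm10 are named in the submitters' processing notes, and the counting tool is not given in the sources used here.

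Counts were fitted with edgeR 4.0.16 in R 4.3.3, with filterByExpr (13608 genes kept), TMM factors and 1 quasi-likelihood fit of all 9 libraries with group as its term. Two-sided p-values were adjusted over these genes by the Benjamini-Hochberg method, and 0.05 was the threshold. The fit was tested on simulated counts. CPM use the TMM factors, and RPKM divide them by the deposited length. Ratios within a library are log2 of counts plus 0.5 and were compared by exact permutation tests. Replicate libraries differed by more than sampling noise (chi-square per gene 12.6 to 1309).

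The 10 factors and the 12 gene lists were chosen with earlier results of these data known. Genes named from a list are its 3 called members with the smallest p and at least 10 CPM in the higher group, per comparison. Other genes were named after their values were seen, as the text says, or because a count of 5 or fewer refers to them. Some genes that met the rule for lists are not reported here. Where a group had no count, folds are lower bounds that set its 3 libraries together at 3 counts. Gene positions are those of GRCm38 in a RefSeq table, which matched all 10 factors and 99.7% of the genes, and exon overlaps come from a mouse GENCODE annotation. Alternatives were RLE and upper-quartile scaling, no filter, a filter of 5 CPM, DESeq2 1.42.0, limma-voom and limma 3.58.1 on the deposited levels, the 2 groups alone, offsets for gene length (a curve of span 0.3 per library), library sizes without hemoglobin genes, without WT 50 and E12 5, a block for replicate number, and fits without 1 library each. The list counts under 3 of these fits were added after seeing the data. Figures were drawn with matplotlib 3.10.9.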

Additional observations from a re-analysis of the deposited data

Results flagged for a closer look

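Flagged were 3 factors, by a call in E12 against VF or by libraries of the mutants lying on opposite sides of WT. Klf1 was higher in E12 than in VF by 2.67 on the log2 scale and Fli1 differed by -1.94, both past the threshold in the test of E12 against VF itself (edgeR adjusted p = 0.015 and 0.024), so their distance from WT was larger in VF. Leaving out single libraries ended both calls. Nfe2 differed by -1.06 between E12 and VF (edgeR adjusted p = 0.058), short of the threshold. It stands here because in CPM all 3 VF libraries lay above all WT libraries and all 3 E12 libraries lay below them. On the deposited levels WT 50 and WT 52 lay below all E12 libraries instead. The VF value of Nfe2 turned to -0.53 with length offsets, and its E12 value turned to 0.14 on the deposited levels. The mutants also differ in weeks after tamoxifen, 6 in E12 and 12 in VF, and the allele and the time cannot be told apart.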

How the results depend on the processing

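Of 610 fold changes of the factors recomputed under the alternatives, 513 kept their direction and side of the threshold, 42 fell short of a threshold they had passed, 47 passed one they had missed and 8 reversed. The reversals were those of Tal1 (-0.28) and Nfe2 (-0.53) in VF against WT with length offsets, Nfe2 in VF against WT without WT 52 (-0.12), Gata1 (0.30) and Nfe2 (0.14) in E12 against WT on the deposited levels, and Lmo2 in E12 against VF with upper-quartile factors (-0.018), on the deposited levels (-0.13) and without VF 3 (-0.045). Leaving out 1 library at a time gave Nfe2 in VF against WT between -0.12 and 0.35 and Lmo2 in E12 against VF between -0.04 and 0.26. On the deposited levels 1 factor was lower in VF and 0 were lower in E12 against WT. The cause was not tested.

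Counts for E12 against VF moved most, from 437 genes and 2 factors, 1 higher and 1 lower. RLE and upper-quartile factors each called 2 factors lower, and the filter of 5 CPM called 4, 3 of them lower. DESeq2 called 1695 genes and 6 factors, 3 higher and 3 lower. Limma-voom called 924 genes and 4 factors, 3 of them lower, and limma on the deposited levels 1784 genes and 4 factors, 3 of them lower. The fit of the 2 groups called 6412 genes and 8 factors, 5 higher and 3 lower. In E12 against WT it called 2967 genes, with 4 factors higher and 2 lower, and Lmo2, Runx1 and Nfe2 lost their calls. Length offsets called 1356 genes and 5 factors, 3 higher and 2 lower, and leaving out WT 50 and E12 5 called 2553 genes and 7 factors, 4 higher and 3 lower. Over fits that each left out 1 library, this comparison called 19 to 3290 genes and 0 to 7 factors, 0 to 4 higher and 0 to 3 lower. The other comparisons called 8 to 9 factors in VF and 7 to 10 in E12 against WT, with 4753 to 8382 and 3612 to 7339 genes.

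Length offsets moved the median log2 fold change of all genes to -0.19 in VF and -0.11 in E12 against WT, and the share of calls that were higher to 39.4% and 41.8%, against 57.0% and 56.9% without them. RLE moved the medians to 0.21 and 0.17. In E12 against VF the share of higher calls was 68.2%, against 50.7% with DESeq2, 44.5% with limma-voom and 52.8% with the 2 groups alone.

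A replicate block on the shared numbers 1 and 2 (4 libraries) called 5433 genes and 8 factors, 5 higher and 3 lower, in E12 against VF. The numbers gave no pairing, since deviations of same-numbered libraries correlated at 0.014 and 0.14 over genes and differently numbered ones at 0.13 and 0.016. WT shares no number with the mutants, so no block could be fitted there. By depth, Fli1 in WT is the least well measured of the factors, at 2.74 to 7.79 CPM. Groups of 3 allow no exact p under 0.1.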

Other observations

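Genes whose profile over the 9 libraries lay nearest to each factor were sought among 8995 genes, by the root mean square difference of centred log2 levels, as a description without a test. Gata1 was nearest to Hars, a histidyl-tRNA synthetase (0.14), which stood at 127 CPM in VF, 343 CPM in E12 and 574 CPM in WT, and to Metap2, a methionine aminopeptidase (0.16). Klf1 was nearest to Pvt1, a long noncoding RNA (0.33), at 5.47 CPM in VF, 41.8 CPM in E12 and 161 CPM in WT, and to Car2 (0.33). Fli1 was nearest to Mctp1 (0.25), at 67.6 CPM in VF, 15.1 CPM in E12 and 1.79 CPM in WT, and to Rab44 (0.45). Runx1 was nearest to Cyth4 (0.14) and Arhgap15 (0.20), Gata2 to Ttyh3 (0.28) and Rin3 (0.33), and Gfi1b to Eno3 (0.19) and Tango2 (0.20). Tal1 was nearest to Ncapd3, a condensin subunit (0.13), and Pcgf6 (0.16). Lmo2 was nearest to the chromatin remodelling subunits Arid2 (0.13) and Pbrm1 (0.14), Zfpm1 to Alkbh5 (0.15) and Pdxp (0.16), and Nfe2 to Arrdc1 (0.11) and Tmub1 (0.15). Members that ranged least over the libraries had the smallest differences, as the measure is in log2 units.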
